A study of Mus musculus with 36 samples.

Results

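Mouse nephron progenitor cells (NPCs) that underwent β-catenin removal and were then placed in high CHIR were compared with NPCs that kept β-catenin and stayed in low CHIR. The question was how far removal of β-catenin returns cells in an inducing dose to the low CHIR state. The comparison used 8 of the 36 libraries of the series, 4 with β-catenin removed in high CHIR and 4 intact in low CHIR, and they were chosen by their labels alone. All were primary NPCs from embryonic kidneys. In the Cre line, NPCs of genotype B-catenin_c_c, with both copies of *Ctnnb1* conditional, received Cre mRNA (2 libraries in high CHIR) or no Cre (2 in low CHIR). In the Cas9 line, Cas9-eGFP NPCs, which make Cas9 and GFP constitutively, received sgRNAs to *Ctnnb1* (2 in high CHIR) or to GFP (2 in low CHIR). CHIR, an inhibitor of GSK3, was at 5 µM in high CHIR and at 1.25 µM in low CHIR for the last 24 h, after 24 h in low CHIR that followed the transfection. Transfected cells carried an mCherry mRNA and mCherry-positive cells were sorted before RNA was made. Genotype and way of removal differ together between the lines and cannot be told apart. The labels give replicate numbers but do not say whether replicates came from separate cultures or animals. The p-values rest on the spread between libraries of the same group, over all 16 libraries with the β-catenin design.

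β-Catenin is the transcriptional arm of canonical Wnt signaling. GSK3, within the destruction complex, marks it for degradation, and when GSK3 is inhibited it accumulates, enters the nucleus and acts with the Tcf/Lef DNA-binding factors. In the developing kidney a weak Wnt input accompanies progenitor renewal, and a strong one starts nephron formation: progenitors lose regulators such as Six2 and Cited1, switch on Wnt4, Lef1 and the Notch ligand Jag1, and aggregate and become epithelial.

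Removal in the Cas9 line relied on 4 sgRNAs to *Ctnnb1*, shown here because they define where the gene was cut. *Ctnnb1* lies on the plus strand of GRCm38 chromosome 9, from 120929216 to 120960507, and all 4 guides match its minus strand within coding exons. The guide is in lower case and the adjoining PAM, as read from the annotated transcripts, is in capitals.
Ctnnb1_sgRNA1: atgagcagcgtcaaactgcgTGG
Ctnnb1_sgRNA3: agccaagcgctggacattagTGG
Ctnnb1_sgRNA5: agctacttgctcttgcgtgaAGG
Ctnnb1_sgRNA6: gagattatgcagtgtcgtgaTGG
The guide parts match chr9:120950987-120951006, chr9:120951011-120951030, chr9:120950729-120950748 and chr9:120951618-120951637, in this order. The first 3 fall close together near the start of the coding sequence and the fourth lies downstream of them. The match of the fourth is annotated as untranslated in some transcripts and as coding in others.

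The 8 libraries held from 16465739 to 22657180 reads on genes, with a median of 20091036. Values are normalized counts, the reads on a gene divided by 1 size factor per library, and they are compared gene by gene, not between genes. Replicate 1 of intact Cre line cells in low CHIR had the fewest genes above 0 of the 8, at 22188, against 23216 to 24640 in the others. Differences are removed high minus intact low CHIR on the log2(normalized count + 1) scale, which understates the change of low genes. They were taken within each line and averaged. A gene was called when its adjusted p (limma, Benjamini-Hochberg over 16780 genes) was under 0.05 and its log2 difference was at least 0.5 in size, and only called genes are said to have risen or fallen. In bulk RNA, fewer cells of a kind and less RNA per cell cannot be told apart.

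*Ctnnb1* itself remained abundant after removal. Intact low CHIR libraries held 3880.1 and 3097 normalized counts in the Cre line and 2521 and 3397 in the Cas9 line, and removed high CHIR libraries held 2254 and 2583 and 1629.9 and 1270.1. Within each line both removed libraries were below both intact ones, but Cre line removal at 2583 was above the lowest Cas9 line control. The gene fell by 0.77 on the log2 scale (SE 0.16, adjusted p = 0.0217 by limma), with differences of -0.52 in the Cre line and -1.02 in the Cas9 line. The call was kept in 4 of 8 fits that left out 1 library, was lost without replicate 2 of the GFP guide controls, replicate 1 of the intact Cre line controls, replicate 2 of the *Ctnnb1* guide cells or replicate 1 of the Cre cells, and was lost in edgeR (adjusted p = 0.0777). Counts over the whole gene do not check the removal, since neither a Cre deletion nor a small Cas9 edit need change them. In the paper's immunostaining before the change of CHIR dose, membrane β-catenin protein of transfected cells was reduced in both lines rather than absent. Removal was partial by that measure, so values of removed cells are not those of cells known to lack β-catenin.

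Over the whole transcriptome, removed cells in high CHIR lay nearer to the low CHIR state than intact cells in high CHIR did. Of 16780 genes tested, 362 (2.16%) rose and 172 (1.03%) fell against intact low CHIR. The same fit called 958 genes higher (5.71%) and 1521 lower (9.06%) in intact high against intact low CHIR, a comparison with the same 4 control libraries. The root mean square log2 difference over all genes was 0.636 in the Cre line and 0.587 in the Cas9 line for removed high against intact low, and 0.917 and 0.890 for intact high against intact low. Those values compare means of 2 libraries. The 2 single libraries of a removed high or intact low group differed by 0.547 to 0.891. Single libraries vary more than means of 2, so these values are not on a like scale. The 4 removed and the 4 intact libraries did not overlap for 284 of the 362 genes that rose and 138 of the 172 that fell. Over all genes tested, 3.87% were separated upward and 3% downward.

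The number of calls was not stable. With 1 library left out, between 162 and 394 genes were higher and between 64 and 239 lower. Fewer genes were higher in all of these fits but 1, 162 and 167 without replicate 1 or 2 of the *Ctnnb1* guide cells, 174 and 224 without replicate 2 or 1 of the GFP guide controls, 214 without replicate 1 of the intact Cre line controls, and 223 and 216 without replicate 1 or 2 of the Cre cells. Lower genes numbered 64 and 83, 70 and 116, 84, and 107 and 130 in those fits. Without replicate 2 of the intact Cre line controls there were 394 and 239. A group left with 1 library is taken to vary like the others in these fits. Taking the replicate number as a block gave 893 higher (5.32%) and 398 lower (2.37%), which included all 534 genes called without it.

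Most called genes passed the thresholds in neither of the steps that make up the difference. The difference is the sum of removal in low CHIR (removed low minus intact low) and the CHIR dose in removed cells (removed high minus removed low). Of the 362 genes that rose, 42 were also called higher in the first step (background 0.34%), 97 in the second (0.912%), 0 in both and 223 in neither. Of the 172 that fell, 21 were called lower in the first (background 0.28%), 37 in the second (0.346%), 4 in both and 118 in neither. These steps share libraries with the comparison. In intact cells, which share the low CHIR controls, 149 of the risen genes were called higher in high CHIR, 59 were called lower and 154 were not called. Of the 172 that fell, 105 were called lower in intact high CHIR, 2 higher and 65 not. Over all genes tested, that comparison called 5.71% higher and 9.06% lower.

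The part of the CHIR response still present in removed cells was read on genes defined in other libraries, the wild-type NPCs of the series, 3 in high and 3 in low CHIR. In those libraries 694 genes were higher and 628 lower in high CHIR by at least 1 on the log2 scale, and 574 and 607 of them were tested here. Of the 574 genes raised by CHIR, 82 rose in removed cells (14.3%, background 2.16%), 5 fell (background 1.03%) and 487 were not called. Their median difference was 0.45 against 0.01 over all genes tested. Of the 574, 280 (48.8%) lay within 0.5 of their low CHIR level, against 81.7% of all genes tested. In intact cells of the β-catenin design, 262 of the 574 were called higher in high CHIR and 15 lower, with a median of 0.87. Not all of them therefore had a called CHIR response to be returned from. Of the 607 lowered by CHIR, 69 fell (11.4%, background 1.03%), 31 rose (5.11%, background 2.16%) and 507 were not called, with a median of -0.18. In intact cells 381 of the 607 were called lower in high CHIR and 8 higher, with a median of -1.16. The 4 pairs of libraries with the same line and number gave medians from 0.46 to 0.53 for the first list (SD 0.03) and from -0.19 to -0.14 for the second (SD 0.02). The lines gave medians of 0.45 (Cre) and 0.48 (Cas9) for the first list and -0.19 and -0.18 for the second.

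On the log2 scale both lists placed removed high CHIR cells between intact low and intact high cells, but not at the same point. The mean log2 level of the 574 raised genes was 6.13 and 5.96 in intact low CHIR in the Cre line and 6.23 and 6.07 in the Cas9 line. It was 6.63 and 6.57, and 6.84 and 6.70, after removal in high CHIR, and 7.32 and 7.28, and 7.32 and 7.24, in intact high CHIR. All 4 removed libraries were above all 4 intact low and below all 4 intact high libraries. The 607 lowered genes averaged 8.27 and 8.25, and 8.37 and 8.40, in intact low CHIR, 8.11 and 8.02, and 8.17 and 8.23, after removal in high CHIR, and 6.81 and 6.74, and 7.12 and 7.06, in intact high CHIR. On this log2 scale removed cells kept 44.3% (Cre) and 54.7% (Cas9) of the intact shift of the raised genes and 12.8% and 14.3% of that of the lowered genes. The difference between the lists was not tested.

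**Figure D1:**
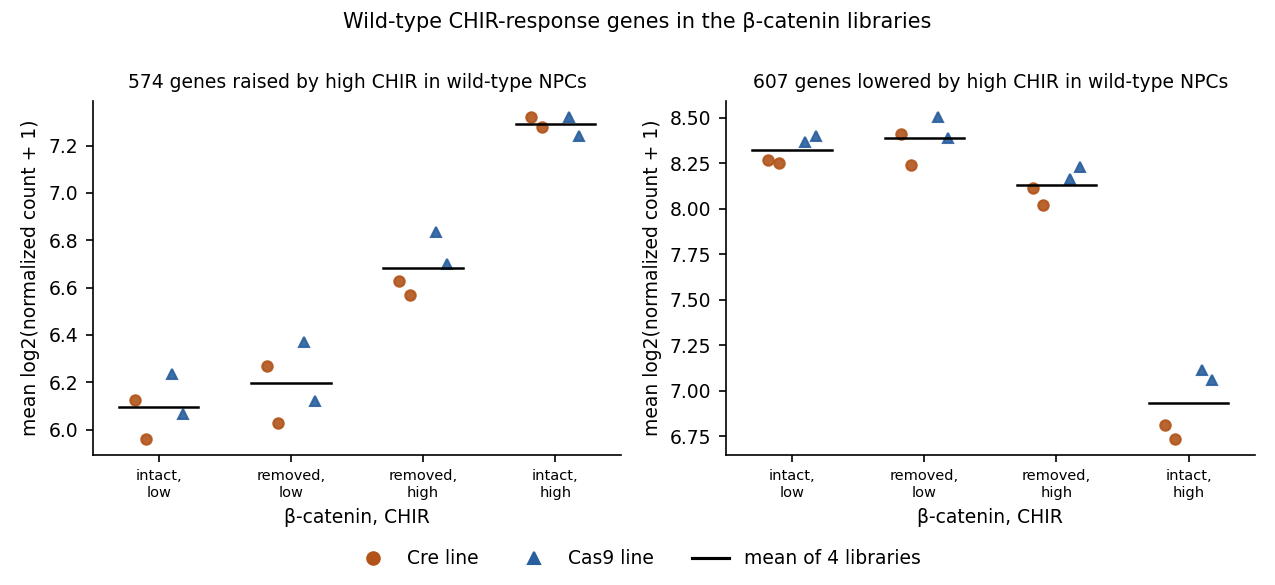
Mean log2(normalized count + 1) of wild-type CHIR-response genes (y axis) in each of the 16 libraries with the β-catenin design, by β-catenin state and CHIR dose (x axis); circles are Cre line, triangles Cas9 line and bars means of 4 libraries. Left, the 574 genes raised by high CHIR in wild-type cells sit between 6.57 and 6.84 in removed high CHIR libraries, apart from both intact states; right, the 607 lowered genes sit between 8.02 and 8.23, near the intact low level.

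A share was also taken gene by gene on normalized counts, for fewer genes, so it is not set against the log2 shares above. Among 229 of them that were also called higher by at least 1 in intact cells of this table, removed high CHIR cells kept a median of 15.2% of the rise in normalized counts (quartiles 8.96 and 31.4%), and 17 were below their intact low level. Among 313 lowered genes chosen likewise, the median share of the loss still present was 19.8% (quartiles -29.8 and 54.2%), and 113 were above their intact low level. On counts the raised genes did not keep the larger share, so the order of the lists depended on the scale and genes used. Numerator and denominator share the intact low libraries. Genes that were higher in wild-type cells without CHIR than in low CHIR (403 tested) had a median difference of 0.23, with 50 higher (12.4%) and 7 lower (1.74%). Those that were lower without CHIR (449 tested) had a median of 0.03, with 21 higher (4.68%) and 10 lower (2.23%). Over all genes tested, 2.16% were higher and 1.03% lower.

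Of 16 progenitor regulators tested, 0 rose and 2 fell (backgrounds 2.16% and 1.03%), with a median of -0.34. With the replicate block 1 rose and 5 fell (backgrounds 5.32% and 2.37%). *Cited1*, a transcriptional co-regulator restricted to early progenitors, on chromosome X from 102247381 to 102252181, held 8722 and 4402 normalized counts in the Cre line and 5978 and 9802 in the Cas9 line in intact low CHIR. After removal in high CHIR it held 2479 and 1855, and 1956 and 2261. All 4 removed libraries were below all 4 intact ones. *Cited1* fell by 1.70 on the log2 scale (SE 0.31, adjusted p = 0.0106, limma), a call lost without replicate 2 of the GFP guide controls or replicate 1 of the *Ctnnb1* guide cells. Intact high CHIR cells averaged only 49.2 (Cre) and 66.1 (Cas9). On the count scale 71.0% of the intact *Cited1* loss was present, and on the log2 scale intact cells differed by -7.00. *Itga8*, an integrin subunit that binds nephronectin, fell by 0.92 (SE 0.22, adjusted p = 0.0386), which was kept in 1 of 8 left-out fits.

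The other progenitor genes were not called without the block, and defining markers of the cell type were still expressed. *Meox2*, a homeobox gene of progenitors on chromosome 12, held 3017 and 3256, and 2553 and 3389.5, in intact low CHIR and 4328 and 3831, and 2215 and 2792, after removal in high CHIR. The groups overlapped, with a difference of 0.07 (SE 0.18), where intact high CHIR cells averaged 117 and 121. *Six2*, the transcription factor that keeps progenitors from differentiating, held 3454 and 1941, and 1731 and 2373, in intact low CHIR. It held 1556 and 1558, and 1832 and 1474, after removal, a difference of -0.52 (SE 0.24, adjusted p = 0.331) with groups that overlapped. *Osr1* and *Tmem100*, also progenitor genes, differed by 0.39 and -0.03. *Eya1*, the Six2 partner and phosphatase, differed by -0.52 and passed only with the replicate block (adjusted p = 0.0229 against 0.091), as did *Sall1*, a zinc finger regulator of the kidney mesenchyme, at -0.58 (0.0035 against 0.0834). *Six2*, *Osr1* and *Tmem100* are named here after their values were seen.

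Some early nephron genes stayed far above their low CHIR level. Of 18 tested, 3 rose (background 2.16%) and 1 fell (background 1.03%), with a median of 0.28. With the replicate block 7 rose and 2 fell (backgrounds 5.32% and 2.37%). *Wnt4*, the Wnt ligand needed for the mesenchymal-to-epithelial transition, on chromosome 4 from 137277489 to 137299726, showed the largest rise of any named gene. It held 7.77 and 23.8 normalized counts in the Cre line and 10.9 and 8.66 in the Cas9 line in intact low CHIR, and 479 and 720.0, and 1240.4 and 847, after removal in high CHIR. Every removed library was far above every intact one. *Wnt4* rose by 5.95 on the log2 scale (SE 0.31, adjusted p = 7.32e-07), and the dose step alone in removed cells gave 5.97 while removal in low CHIR gave -0.02. Intact high CHIR cells averaged 5414 and 5554, so removed cells kept 14.8% of the *Wnt4* rise in counts.

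*Jag1*, the Notch ligand of early nephrons, on chromosome 2 from 137081456 to 137116644, held 412 and 418, and 746 and 579, in intact low CHIR and 1836 and 1481, and 4151 and 2282, after removal. The groups did not overlap and *Jag1* rose by 2.11 (SE 0.20, adjusted p = 0.000111), which is 16.1% of its rise in intact cells on the count scale. *Bmp2*, a secreted BMP ligand on the same chromosome, held 70.0 and 54.9, and 49.7 and 61.7, in intact low CHIR and 237 and 243, and 371 and 379, after removal. It rose by 2.34 (SE 0.24, adjusted p = 0.000173) and kept 35.2% of its intact rise. *Pou3f3*, a POU factor of the later distal nephron, fell by 1.79 from low levels, a call kept in 2 of 8 left-out fits. The calls of *Wnt4*, *Jag1* and *Bmp2* held in 8 of 8.

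**Figure D2:**
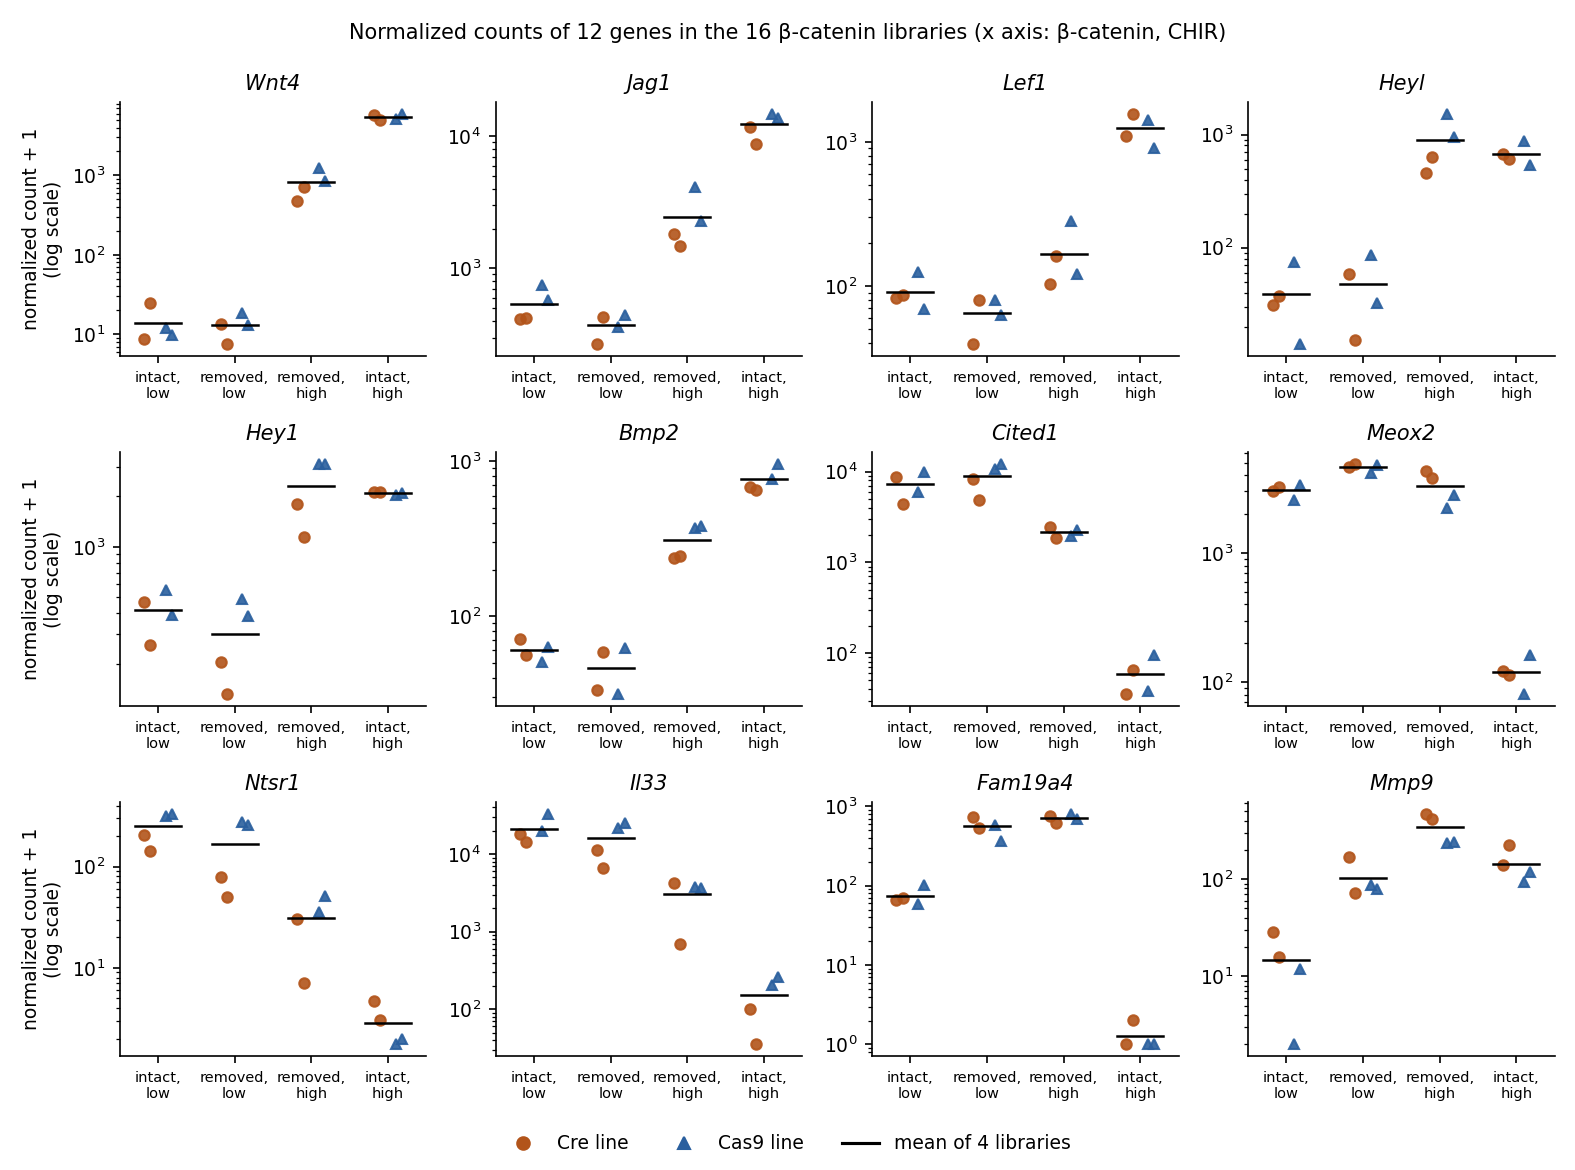
Normalized counts plus 1 (y axis, log scale) of 12 genes in each of the 16 libraries, by β-catenin state and CHIR dose (x axis); circles are Cre line, triangles Cas9 line and bars means of 4 libraries. *Wnt4*, *Jag1* and *Bmp2* lie between the intact low and intact high levels after removal in high CHIR, *Meox2* lies at its low CHIR level, *Heyl* and *Hey1* lie below their intact high mean in the Cre line and above it in the Cas9 line, and *Fam19a4* and *Mmp9* exceed both intact states.

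Of 15 feedback targets of canonical Wnt signaling tested, 0 were called in either direction by limma. With the replicate block 3 were called higher and 2 lower (backgrounds 5.32% and 2.37%). The median was 0.60, with 0.18 in the Cre line and 0.57 in the Cas9 line. Differences ran from -1.38 to 1.68, and 11 of the 15 lay above 0, against 8523 of all 16780 genes. *Lgr5* and *Dkk1*, at -1.38 and -0.67, passed only with the block (limma adjusted p = 0.00376 and 0.00917 against 0.0559 and 0.607). In intact cells both were called lower in high CHIR, at -2.09 and -2.47. In wild-type cells they differed by 0.47 and 0.27 between high and low CHIR, neither called. *Lef1*, a target that also encodes a Tcf/Lef factor, held 82.2 and 85.2, and 124 and 68.2, in intact low CHIR and 102 and 161, and 279.9 and 119.7, after removal. The groups overlapped, since 1 GFP guide control exceeded 2 removed libraries, with a difference of 0.80 (SE 0.32, adjusted p = 0.244, 0.0146 with the replicate block), and 6.57% of the intact rise remained. *Axin2*, the feedback inhibitor used as a general Wnt reporter, held 115 and 64.1, and 74.5 and 48.7, against 61.6 and 75.3, and 107 and 73.9. It differed by 0.11 (SE 0.29), and *Znrf3*, which removes Frizzled receptors from the cell surface, by 0.04 (SE 0.11). *Tcf7*, the other activating Tcf/Lef factor, differed by -0.03, and *Lhx1*, a LIM factor of the renal vesicle, by 0.06. *Axin2* and *Lhx1* are named after their values were seen.

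The remaining Wnt components showed few calls. Of 4 Tcf/Lef factors and 9 destruction complex genes 0 were called, and 1 Tcf/Lef factor rose with the block. Of 18 ligands and receptors 2 were called, *Wnt4* and *Ryk*, a Wnt co-receptor that fell by 0.59 and was kept in 1 of 8 left-out fits and lost by edgeR and DESeq2. With the block 2 of these rose and 2 fell. Over all genes tested, 2.16% rose and 1.03% fell, and 5.32% and 2.37% with the block. At an unadjusted p under 0.05, 1074 genes of all 16780 were higher (6.4%) and 551 lower (3.28%).

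Of 13 Notch pathway genes tested, 5 rose (background 2.16%) and 0 fell. The list median was 0.60, with 0.07 in the Cre line and 0.91 in the Cas9 line. With the replicate block 6 rose and 2 fell (backgrounds 5.32% and 2.37%). The strongest rises were of genes that Notch signals are known to induce. *Heyl*, a bHLH repressor induced by Notch, on chromosome 4 from 123233556 to 123249875, held 30.0 and 36.6, and 73.5 and 13.0, in intact low CHIR and 456 and 635, and 1525 and 944, after removal. It rose by 4.60 (SE 0.51, adjusted p = 0.000281) with no overlap, and 134% of the intact rise was present over both lines. By line, removed cells averaged 546 (Cre) and 1234 (Cas9) against 643 and 709 in intact high CHIR, so they were below that level in the Cre line and above it in the Cas9 line. *Hey1*, its close relative, held 468 and 259, and 553 and 391, against 1802 and 1148, and 3117 and 3134, and rose by 2.39 (SE 0.21, adjusted p = 6.68e-05), 112% of its intact rise over both lines. Removed cells averaged 1475 and 3126 against 2122 and 2062 in intact high CHIR, again below in the Cre line and above in the Cas9 line. In wild-type cells, which are separate libraries, *Hey1* differed by -0.87 and *Heyl* by 0.31 between high and low CHIR.

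*Hey2*, the third relative, held 26.7 and 19.2, and 13.9 and 13.0, in intact low CHIR and 42.4 and 89.9, and 121 and 87.1, after removal. It rose by 2.13 (SE 0.46, adjusted p = 0.0248) while intact high CHIR differed by 0.22. The receptor *Notch1* rose by 1.15 (SE 0.28, adjusted p = 0.0395), with 0.03 in intact cells. Both of these calls were kept in 1 of 8 left-out fits and neither was made by edgeR. *Dll1*, a second Notch ligand, and *Lfng*, which modifies Notch, differed by -1.65 and -1.44 and passed only with the block.

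BMP genes rose where they were called and Fgf genes were not called. Of 21 BMP pathway genes 5 rose with the replicate block (background 5.32%). The list median was 0.40, with 0.07 in the Cre line and 0.51 in the Cas9 line. Without the block 3 rose (background 2.16%) and 0 fell. Besides *Bmp2* these were the ligand *Bmp4*, which rose by 1.41 (SE 0.31, adjusted p = 0.0265, 3 of 8 left-out fits), and the receptor *Bmpr1b*, which rose by 0.96 (SE 0.22, adjusted p = 0.0314, 2 of 8). The Id genes, usual targets of BMP signals, gave no call, with *Id1* at 0.28 and *Id2* at -0.21. Of 17 Fgf pathway genes 0 were called by limma, with a median of -0.15. With the block 1 was called higher and 2 lower (backgrounds 5.32% and 2.37%). *Fgf9*, an Fgf ligand that supports progenitors, differed by -0.96 (adjusted p = 0.21, 8.46e-05 with the block).

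**Figure D3:**
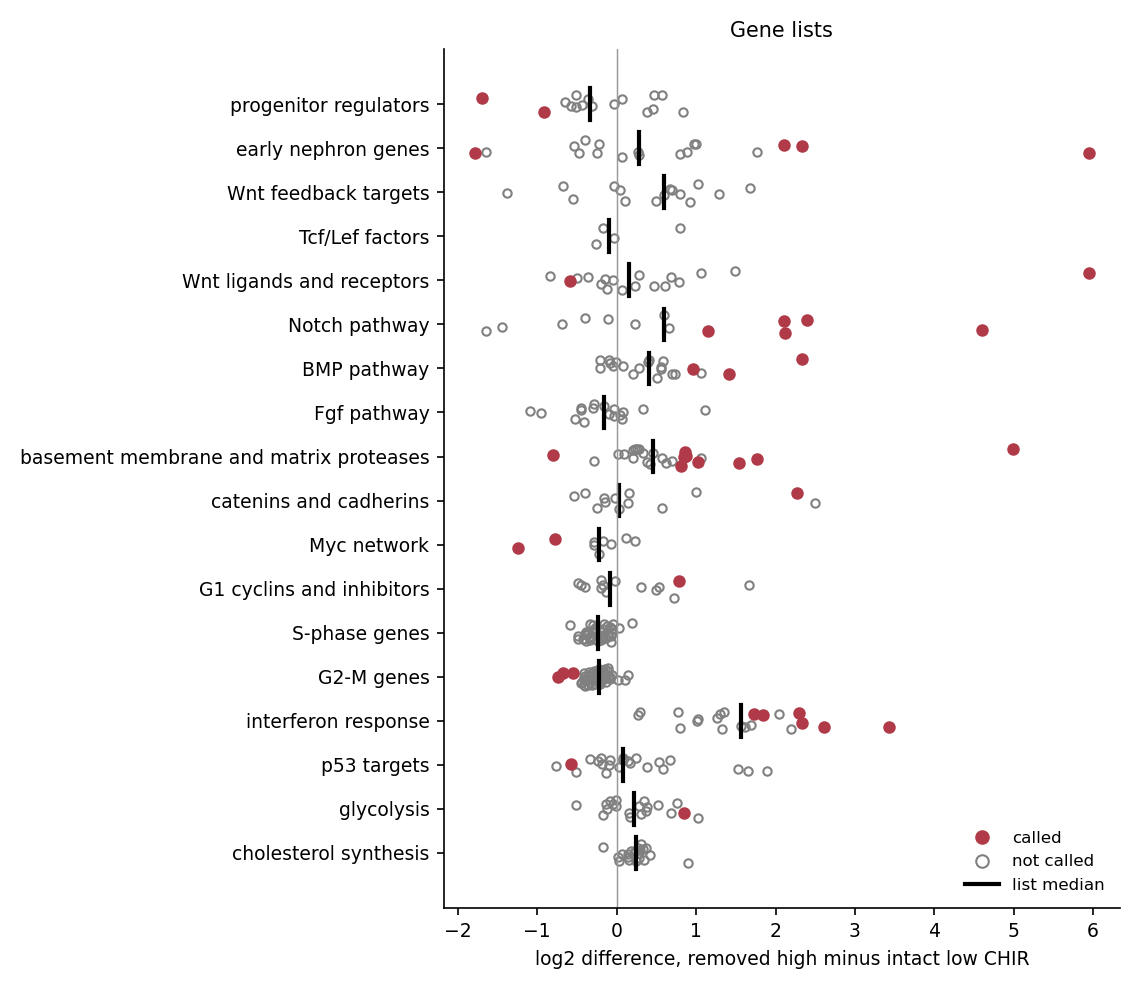
Log2 differences, removed high minus intact low CHIR (x axis), of every tested gene in 18 of the gene lists (rows); filled points passed both thresholds, open points did not, and bars are list medians. Rises stand out in the Notch, matrix and interferon rows, while S-phase and G2-M genes lie close together just below 0.

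The other strong rises, among the 10 highest called genes whose groups were apart and whose mean reached 50 counts, came by different steps. *Ffar4*, a fatty acid receptor, *Padi2*, a peptidylarginine deiminase, and the unnamed gene *Gm14226* followed *Wnt4*: the dose step in removed cells gave 5.02, 4.32 and 3.56 and removal in low CHIR -1.05, -1.07 and 0.54. *Ffar4* held 4.44 and 6.41, and 14.9 and 2.16, in intact low CHIR and 75.7 and 54.6, and 196 and 146, after removal, and kept 19.2% of its intact rise. *Padi2* rose by 3.25 (SE 0.53) and kept 15.4%. *Gm14226* rose by 4.10 (SE 0.44) and kept 52.1%.

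*Nnmt*, nicotinamide N-methyltransferase, was at 0 and 0.916, and 1.99 and 1.08, in intact low CHIR and at 154 and 271, and 17.5 and 95.9, after removal in high CHIR. The control values are about 1 read or less in the Cre line, so the fitted difference of 5.65 (SE 0.63, adjusted p = 0.000284) depends on the added count of 1. Intact high CHIR cells averaged 9.90 and 5.45, well under the removed cells. *Ptchd4* and *Fam196b* rose by 3.55 and 3.48 and kept their calls in 2 and 4 of 8 left-out fits, and edgeR called neither.

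Among wild-type CHIR-raised genes, 3 more were named by their rise. *Itga6*, the laminin-binding integrin subunit of epithelia, on chromosome 2 from 71745616 to 71858416, held 114 and 113, and 77.5 and 89.8, in intact low CHIR and 798 and 483, and 645 and 643, after removal. It rose by 2.69 (SE 0.21, adjusted p = 2.16e-05) with no overlap, although intact high CHIR cells averaged only 174 and 191. *Kit*, the stem cell factor receptor, rose by 2.63 (SE 0.50, adjusted p = 0.0125) and lost the call without replicate 2 of the GFP guide controls or of the *Ctnnb1* guide cells. *Ccdc88c*, which binds Dishevelled, rose by 2.60 (SE 0.37, adjusted p = 0.00175) and kept 18.2% of its intact rise.

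Of the 10 strongest falls, 8 were of genes whose values were also lower in high than in low CHIR in wild-type cells. *Il33*, a nuclear cytokine on chromosome 19, held 18408 and 14141, and 19552 and 33122, in intact low CHIR and 4206 and 685, and 3752 and 3649, after removal. All 4 removed libraries were below the controls, with replicate 2 of the Cre cells lowest, and *Il33* fell by 3.01 (SE 0.45, adjusted p = 0.00257). Intact high CHIR cells averaged 66.8 and 235, so removed cells stood apart from both states.

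*Ntsr1*, the neurotensin receptor, held 202 and 141, and 319 and 332, in intact low CHIR and 29.3 and 6.07, and 35.0 and 50.2, after removal, and fell by 3.23 (SE 0.40, adjusted p = 0.000587). *Lmcd1*, a LIM protein, held 1681 and 2168, and 1821 and 1579, against 100.0 and 198, and 319.5 and 388. It fell by 3.01 (SE 0.26, adjusted p = 5.23e-05), with about equal steps of -1.54 from removal in low CHIR and -1.47 from the dose. Intact high CHIR cells averaged 401 (Cre) and 237 (Cas9).

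*Pde11a*, a cyclic nucleotide phosphodiesterase, fell by 3.05, *Pnmt*, which makes adrenaline, by 2.92, *Frat1*, a GSK3-binding protein, by 2.44 and *Cutal* by 2.40. *Gldn*, *Btbd11* and *Gfra1*, the Gdnf co-receptor, fell by 2.89, 2.59 and 2.49. In wild-type cells high CHIR differed from low CHIR by -3.33, -3.38, -2.26 and -3.85 for *Pde11a*, *Pnmt*, *Frat1* and *Cutal*, by -1.78 for *Btbd11*, and by 0.95 and 2.37 for *Gldn* and *Gfra1*. In intact cells of the β-catenin design the sign was the other way for the last 2. There high CHIR differed by -1.10 for *Gldn*, which was not called, and by -3.57 for *Gfra1*, which was called lower. The *Cutal* call was kept in 2 of 8 left-out fits, and edgeR did not call *Gldn* or *Pnmt*.

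**Figure D4:**
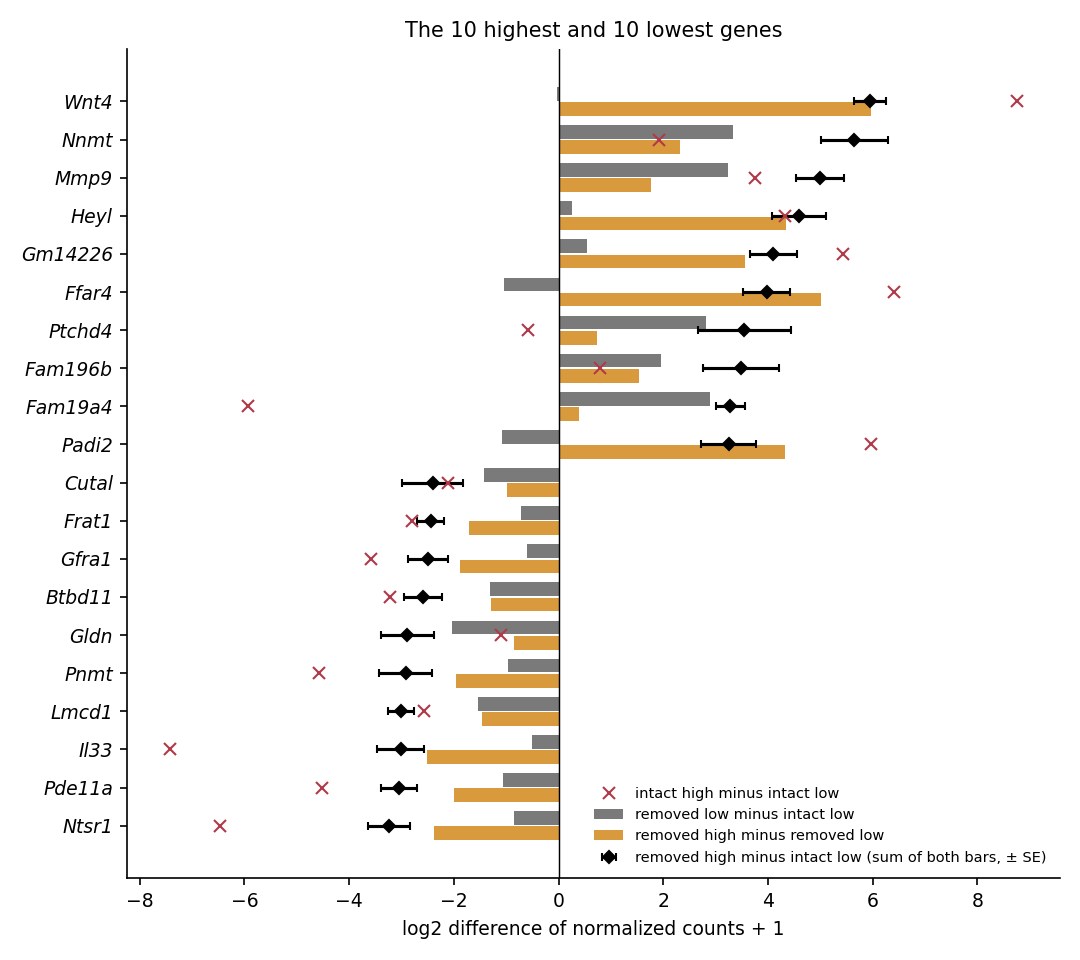
Log2 differences (x axis) for the 10 highest and 10 lowest genes named by rule (rows); diamonds are removed high minus intact low CHIR with SE, bars its 2 additive steps, and crosses intact high minus intact low. *Wnt4*, *Ffar4* and *Padi2* rise by the dose step, *Fam19a4* by removal in low CHIR, and *Fam19a4* moves opposite to its change of -5.93 in intact cells.

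Some genes rose past the low CHIR level although high CHIR lowers them in intact cells. *Fam19a4*, a secreted chemokine-like protein on chromosome 6, held 65.5 and 69.6, and 58.6 and 101, in intact low CHIR and 744 and 611, and 805 and 696, after removal in high CHIR. It rose by 3.28 (SE 0.28, adjusted p = 5.23e-05), with 2.89 from removal in low CHIR and 0.40 from the dose, while intact high CHIR cells averaged 0.519 (Cre) and 0 (Cas9). *Emcn*, a sialomucin, held 165 and 147, and 126 and 83.3, against 911 and 523, and 1042 and 617, and rose by 2.55 (SE 0.29, adjusted p = 0.000304) with a dose step of -0.01. *Mmp9*, a matrix protease, held 27.8 and 14.7, and 0.994 and 10.8, against 468 and 414, and 236 and 237, and rose by 4.99 (SE 0.46, adjusted p = 7.95e-05). High CHIR also raised *Mmp9* in intact cells, to 181 and 104.

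A part of the genes that the study lists as changed by removal in low CHIR was taken from its text. These were chosen on libraries that include the controls used here, so their directions are no independent evidence. All 7 genes so taken as raised rose (background 2.16%), among them *Sh3gl2*, *Khdrbs2* and *Angpt2* by 2.36, 1.43 and 1.28. The *Khdrbs2* call was kept in 3 of 8 left-out fits and that of *Angpt2* in 6, and *Khdrbs2* was lost by edgeR and in the 8 libraries alone. Of 11 taken as lowered 5 fell and 1 rose (backgrounds 1.03% and 2.16%). The list median was -1.21 in the Cre line and 0.26 in the Cas9 line. Alone, the Cre line called 6 lower, and the Cas9 line 2 lower and 1 higher. By limma 8 of the 11 had an unadjusted p under 0.05 for the line difference. After adjustment 0 passed, and 1 with the replicate block. *Pcp4*, a calmodulin-binding peptide, held 599 and 598, and 563 and 700.2, against 77.7 and 74.1, and 204 and 182, and fell by 2.33 (SE 0.17, adjusted p = 1.63e-05). *Gfra2*, a neurturin receptor, *Hs3st3b1*, a heparan sulfotransferase, *Sema3c*, a semaphorin, and *Elavl4*, an RNA-binding protein, fell by 2.02, 1.17, 0.97 and 0.88, with that of *Sema3c* kept in 6 of 8 left-out fits and lost by edgeR and in the 8 libraries alone. *Trim2*, a ubiquitin ligase, rose by 0.90, with -1.25 from removal in low CHIR and 2.15 from the dose. It differed by 0.31 in the Cre line (adjusted p = 0.573) and 1.49 in the Cas9 line, and the call was lost in the 8 libraries alone.

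Proliferation genes were slightly below the low CHIR level as groups, with few calls. Of 43 S-phase genes 0 were called by limma, 41 lay below 0 and the median was -0.23. Of 54 G2-M genes 3 fell, 51 lay below 0 and the median was -0.22. Over all genes tested, 8257 of 16780 lay below 0, with a median of 0.01. Of all genes 2.16% rose and 1.03% fell, and 5.32% and 2.37% with the block. The G2-M median was -0.42 in the Cre line and -0.09 in the Cas9 line. By limma 10 of the 54 had an unadjusted p under 0.05 for the line difference and 0 an adjusted one. *Hmgb2*, a chromatin protein, *Nuf2*, of the kinetochore, and *Pimreg*, a mitotic regulator, fell by 0.67, 0.55 and 0.73, and kept their calls in 2, 5 and 1 of 8 left-out fits, and edgeR made none of them. With the block 1 S-phase gene fell. *Mycn*, a Myc-family driver of progenitor growth, held 867 and 575, and 844 and 595, in intact low CHIR and 172 and 172, and 517 and 525, after removal. It fell by 1.24 (SE 0.21, adjusted p = 0.00607), with -2.03 in the Cre line and -0.44 in the Cas9 line. The *Mycn* call was not made by edgeR and was lost in the 8 libraries alone. *Mxd3*, a Max partner, fell by 0.78 (1 of 8 left-out fits). *Ccnd2*, a G1 cyclin, rose by 0.78 (SE 0.14, adjusted p = 0.00928) and kept 14.1% of its intact rise, a call lost without replicate 1 of the *Ctnnb1* guide cells. It was the only call among 14 G1 cyclins and inhibitors, of which 3 rose with the block.

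Of 25 genes of basement membranes and matrix proteases 8 rose (background 2.16%), 1 fell (background 1.03%) and 16 were not called, with a median of 0.45. With the replicate block 10 rose and 1 fell (backgrounds 5.32% and 2.37%). The laminin chains *Lama4* and *Lamb1* rose by 1.77 (SE 0.29) and 1.53 (SE 0.25). *Lama4* held 214 and 234, and 671 and 287, in intact low CHIR and 958 and 574, and 1699.9 and 1409, after removal, with 1 GFP guide control above the lowest removed library. *Col4a1*, a collagen IV chain, rose by 0.87 (SE 0.14, adjusted p = 0.00364), a call lost in the 8 libraries alone. The proteoglycans *Hspg2* and *Agrn* rose by 1.02 and 0.87, calls kept in 3 and 5 of 8 left-out fits, with that of *Agrn* also lost by edgeR. The laminin *Lamc1* and the nidogens *Nid1* and *Nid2* were not called, at 0.45, 0.70 and 0.28, and *Lamc1* and *Nid1* passed with the block (adjusted p = 0.0455 and 0.0196). *Col4a6*, another collagen IV chain, fell by 0.81. Of 13 catenins and cadherins only *Pkp2*, a desmosomal plakophilin, was called, and it rose by 2.27 (SE 0.44, adjusted p = 0.0137), while 3 rose with the block.

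Few genes could be told apart between the lines, and several of those respond to interferon. Alone, the Cre line gave 104 higher genes (0.62%) and 53 lower (0.316%), and the Cas9 line 83 (0.495%) and 24 (0.143%). A limma test of the difference between the lines called 0 genes, with 636 at an unadjusted p under 0.05 (3.79%), 12 with the replicate block (0.0715%), 5 by DESeq2 and 0 by edgeR. Of 21 interferon-response genes, 6 rose and 0 fell over both lines (backgrounds 2.16% and 1.03%), with a median of 1.56. All 21 lay above 0, against 8523 of all 16780 genes tested. With the replicate block 18 rose over both lines (background 5.32%), 17 in the Cre line alone and 1 in the Cas9 line alone. The median was 2.61 in the Cre line and 0.27 in the Cas9 line, and 12 of the 21 had an unadjusted p under 0.05 for the line difference.

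*Isg15*, a ubiquitin-like protein induced by interferon, held 23.3 and 27.5 in the Cre line and 162 and 47.6 in the Cas9 line in intact low CHIR. It held 568 and 318, and 277 and 62.5, after removal in high CHIR. Cre line levels were apart, while Cas9 line levels overlapped, and the difference was 4.02 in the Cre line and 0.58 in the Cas9 line (adjusted p of the line difference 0.986, 0.0179 with the replicate block). *Oas1a*, an RNA sensor, held 14.4 and 10.1, and 57.6 and 23.8, against 240.3 and 120.2, and 54.3 and 24.6, and *Bst2*, a membrane tether of viruses, differed by 2.67 and 0.80. Over both lines the list's median was 1.47 for removal in low CHIR and 0.06 for the dose step. Only the removed cells of the Cre line received Cre mRNA, so Cre mRNA and removal cannot be told apart there, whereas both arms of the Cas9 line received sgRNA. All 6 interferon calls were kept in 4 or fewer of 8 left-out fits, and edgeR made none of them.

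**Figure D5:**
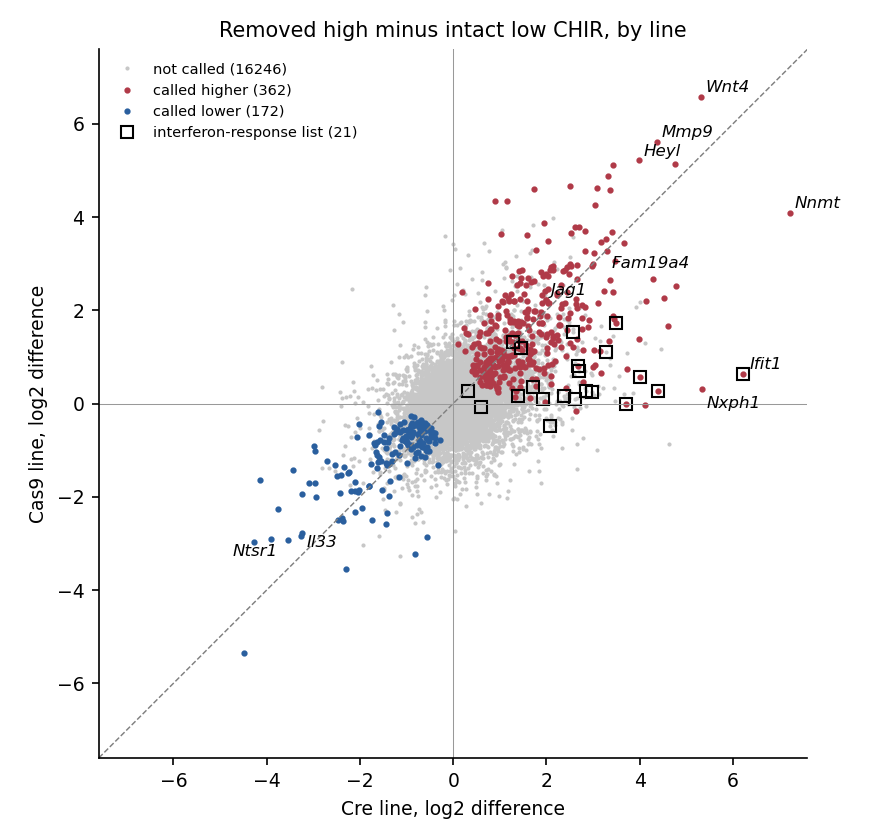
Log2 difference, removed high minus intact low CHIR, in the Cre line (x axis) and the Cas9 line (y axis) for all 16780 genes tested; coloured points passed both thresholds over both lines and squares mark the 21 interferon-response genes. *Wnt4*, *Heyl* and *Mmp9* lie near the diagonal, while most squares lie to the right near 0 of the Cas9 line.

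Metabolic and stress lists held few calls. Of 23 p53 targets 1 fell, *Dcxr* by 0.58, a call kept in 1 of 8 left-out fits and lost by edgeR and in the 8 libraries alone, and the median was 0.08. With the replicate block 3 of the list rose and 2 fell. Of 20 glycolysis genes 1 rose, *Hk1*, the housekeeping hexokinase, by 0.85 (SE 0.15, adjusted p = 0.00704), a call that edgeR did not make, and 2 rose and 1 fell with the block. Of 21 cholesterol synthesis genes 0 were called by limma or with the block, while 20 lay above 0 with a median of 0.24. Over all genes tested, 8523 of 16780 lay above 0. Of all genes 2.16% rose and 1.03% fell, and 5.32% and 2.37% with the block.

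Summed markers of other kidney cells overlapped between the states except for ureteric epithelium, and 0 of the markers present were at 0 in all 8 libraries. The 13 stroma markers summed to 11199 to 24506 normalized counts in removed high CHIR libraries and 7279 to 26590 in intact low CHIR, with 1 called, *Pdgfrb*, a pericyte receptor that rose by 2.10, a call kept in 3 of 8 left-out fits and lost by edgeR. The 3 blood markers tested had 0 calls, and the sums of the blood list ran from 64.3 to 80.8 and from 44.4 to 99.4. Endothelium markers summed to 816 to 1397 and 1089 to 2181, with *Cldn5*, a tight junction claudin, higher by 1.77 and *Flt4*, a VEGF receptor, lower by 1.23. The *Cldn5* call was kept in 1 of 8 left-out fits and lost by edgeR, DESeq2 and the 8 libraries alone, and that of *Flt4* was kept in 2 of 8 and lost in the 8 libraries alone. Ureteric epithelium markers summed to 681 to 809 against 477 to 641. Of 6 tested, *Upk1b*, a uroplakin, rose by 3.32 (SE 0.54, adjusted p = 0.00427) and *Krt18*, a keratin of simple epithelia, by 1.37 (SE 0.24, adjusted p = 0.00641), with 3.13 and 1.22 from removal in low CHIR. *Hoxb7* and *Gata3*, which mark the ureteric lineage, differed by 0.09 and 0.98 without a call, though *Gata3* passed with the replicate block. With the block 2 stroma markers rose and 1 fell, and 3 ureteric markers rose. Of all genes tested 2.16% rose and 1.03% fell, and 5.32% and 2.37% with the block. The part of these cells in the results above was not tested.

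A Tcf/Lef core motif was looked for in the promoters of called genes, 250 bases before to 50 after the start in RefSeq. CTTTGAT on either strand was found in 9 of 253 promoters of risen genes (3.56%), 3 of 133 of fallen genes (2.26%) and 250 of 10496 of all genes tested (2.38%), and in 3.73% of all promoters. The motif shares describe these windows only.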

How the data were processed

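RNA-seq libraries (SMARTer cDNA, paired-end reads of 150 bases) were aligned and counted on genes by the authors with STAR and featureCounts, per the labels. The mouse build is given as GRCm38 or mm10, and the paper describes alignment to mouse GRCm38 together with human GRCh38. The authors deposited counts divided by 1 DESeq2 size factor per library (a signal on a count scale), and the whole reads behind them were recovered in 100% of values within a tolerance of 0.01. Whether counting used strand is not given in the sources used here, so overlapping and antisense genes are uncertain. Values are from 26863 genes in the β-catenin table and 25760 in the wild-type table. The deposited comparison columns (fold changes and p-values) hold the authors' own tests and were not used here, nor were the Tcf/Lef libraries.

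Log2(normalized count + 1) was fitted with limma 3.58.1 (R 4.3.3, variance trend) over all 16 β-catenin libraries in 8 groups of 2, for the 16780 genes whose mean reached 10, with 8 residual degrees of freedom and Benjamini-Hochberg adjustment. Comparisons were averaged over the lines. The wild-type fit covered 9 libraries and 17411 genes. The libraries' replicate numbers were checked: deviations from group means of same-numbered libraries correlated by 0.359 (Cre) and 0.116 (Cas9) in the groups compared and by 0.116 to 0.518 in all 12 group pairs of a line. They were taken to pair, and blocked counts stand beside most lists. edgeR 4.0.16 and DESeq2 1.42.0 ran on recovered reads without 2 libraries (replicate 1 of the GFP guide controls in low CHIR and replicate 1 of Cre removal in high CHIR), in which 1 read was worth about 1 normalized count. Other alternatives were a pseudocount of 0.5, no filter, TMM scaling, a log2 threshold of 1, the 8 libraries alone, each line alone and each library left out. The steps were tested on simulated data.

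Named genes were *Ctnnb1*, the 10 highest and 10 lowest called genes whose mean reached 50 and whose groups did not overlap, 5 from each wild-type list, the 5 largest differences between lines (none qualified), and up to 6 called and 4 abundant members of each of 25 lists. Genes outside the rule are said to be so or are members of a list. The comparison, lists and rule were chosen with earlier results of these data known. Gene places are from GENCODE vM21 on GRCm38, as are guide matches, and promoters from RefSeq.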

Additional observations from a re-analysis of the deposited data

Results flagged for a closer look

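For 6 list members the difference in the Cas9 line departed from that in the Cre line. With the replicate block, the interferon-response genes *Isg15*, *Oas1a* and *Bst2* differed between the lines by -3.44, -3.73 and -1.87 on the log2 scale, Cas9 minus Cre (adjusted p = 0.0179 each, limma with the block, and 0.986, 0.938 and 0.986 without it). *Sel1l3*, from the list of genes that removal lowers in low CHIR, differed by 1.83 (adjusted p = 0.0387 with the block, 0.431 without). It held 1022 and 1069.5 normalized counts in the Cre line and 789.9 and 667 in the Cas9 line in intact low CHIR, and 447 and 444, and 1122 and 1087, after removal in high CHIR.

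*Fgfr1*, an Fgf receptor, and *Kif5c*, a kinesin, were noted because both libraries of the Cas9 line moved up and both of the Cre line moved down. They differed between lines by 0.69 and 1.24. By limma these differences were not called (adjusted p = 0.986 and 0.938, and 0.479 and 0.217 with the block).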

How the results depend on the processing

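Of 534 genes called, 409 were also called in the same direction by DESeq2, 222 by edgeR, 312 in the 8 libraries alone and 534 with the replicate block. The number of genes higher and lower was 168 and 73 by edgeR, 227 and 102 in the 8 libraries alone, 893 and 398 with the replicate block, 104 and 53 in the Cre line, and 83 and 24 in the Cas9 line. It was 385 and 192 by DESeq2, 347 and 165 with a pseudocount of 0.5, 347 and 161 without a filter and 369 and 167 with TMM. A log2 threshold of 1 gave 75 lower. Left-out libraries gave 162 to 394 higher and 64 to 239 lower. The line difference was called for 12 genes with the replicate block and 5 by DESeq2. The median of wild-type raised genes was 0.27 with a wild-type threshold of 0.5 and 0.38 to 0.50 with 1 library left out. That of lowered genes was -0.21 by DESeq2 and -0.20 to -0.15 with 1 library left out. Of 70 named genes called, 36 were called in 8 of 8 left-out fits, 42 by edgeR, 64 by DESeq2, 35 in the Cre line and 22 in the Cas9 line, and the replicate block ended none of these calls. In the Cas9 line alone *Oas1a* was at -0.018, against a rise of 1.85 over both lines. The causes of these changes were not tested.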

Other observations

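Besides *Isg15*, *Oas1a*, *Bst2* and *Sel1l3*, another 8 genes differed between the lines with the replicate block (adjusted p under 0.05, limma), and those named here were chosen after their values were seen. *Nxph1*, a neurexin ligand, was listed at 0 and 0 normalized counts in intact low CHIR in the Cre line and at 197 and 373 in the Cas9 line. After removal in high CHIR it held 27.3 and 57.1, and 215 and 525. *C1qtnf12*, a secreted adipokine, held 2797 and 2670.1, and 2125 and 2115, against 2191 and 2373, and 4718 and 4419, so that it was below its controls in the Cre line and above them in the Cas9 line. *Fgf9* differed by -1.69 in the Cre line and -0.22 in the Cas9 line. *Rtp4* and *Dtx3l*, which interferon is also known to induce but which were not on the list, differed by 4.12 and 2.63 in the Cre line and -0.02 and -0.17 in the Cas9 line.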
